A study of Mus musculus with 10 samples.

Results

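The small intestine makes much of the body's citrulline, and 8 enzymes of citrulline and arginine synthesis were followed here in intestine labelled proximal, from WT mice and mice labelled KO for the zinc and metal transporter Zip14 (*Slc39a14*). They are *Aldh18a1*, *Prodh*, *Oat*, *Nags*, *Cps1*, *Otc*, *Ass1* and *Asl*, grouped by their place in this pathway and chosen with earlier results of these data known. All 8 had a gene ID among the 35275 IDs counted, and all 8 passed the filter on low counts that left 15610 genes for testing. In KO libraries, 4 of the 8 were called lower, 2 were called higher and 2 were not called, while 13.9% of all genes tested were called lower and 16.0% higher. Only 2 were called lower when WT replicate 1, 2 or 3 or KO replicate 2 or 3 was left out. Over all genes the lower calls also fell in those fits, from 2169 to between 1573 and 2093. When smooth muscle markers were added to the fit, 0 enzymes were called in either direction by edgeR, with 1 at an unadjusted p under 0.05. In that fit only 10 of all 15610 genes were called higher and 8 lower, so the loss was not particular to the enzymes.

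RNA-seq was done on intestinal segments labelled proximal from 5 mice labelled WT and 5 labelled Zip14 KO, with 1 library for each mouse. The labels give the genotypes as WT and KO and the age as 8 to 10 weeks, and list no treatment by an agent. The methods of the study place whole-body Zip14 -/- mice (WB-KO) in the RNA-seq experiment and describe WT controls of the same strain, both from matings of heterozygotes, whereas the title given to the deposited data names an enterocyte-specific deletion. The counts do not tell which deletion the KO mice carried, and sex was not given per mouse. The total per library was between 16729787 and 20819678 counts in WT and between 17118742 and 19414828 counts in KO. Values below are CPM, the reads of a gene relative to the library's total after that total is rescaled by the TMM method, which keeps a few very abundant genes from shifting all others.

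*Slc39a14* was between 190.8 and 356.8 CPM in WT and between 78.5 and 160.1 CPM in KO, where replicate 1 was the highest. Its log2 fold change was -1.35 (edgeR, adjusted p = 0.00184), and its KO mean was 39.3% of the WT mean. Counts of a whole gene do not show whether reads from the deleted part remained. The Y-linked genes *Ddx3y*, *Kdm5d*, *Uty* and *Eif2s3y* had 0 or 1 count in each of the 10 libraries, and *Xist*, transcribed from an inactive X chromosome, had between 5485 and 9247 counts. The X-linked *Otc* was therefore compared among libraries that were alike in these genes.

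The KO libraries went against the label of proximal intestine. *Gata4*, a transcription factor of duodenum and jejunum, was between 160.3 and 216.7 CPM in WT. In KO it was 59.4 CPM in replicate 1 and between 0.572 and 13.8 CPM in replicates 2 to 5. *Fabp6*, the bile acid binding protein of ileal enterocytes, was at most 1.74 CPM in WT and between 2307 and 9058 CPM in KO. All 5 of the 5 ileal markers were called higher in KO, and 4 of the 7 proximal markers tested were called lower. Genotype and position along the intestine cannot be told apart in these samples, and this holds for *Slc39a14* and for every comparison that follows. The 10 smooth muscle markers summed to between 1626 and 2659 CPM in WT and between 3598 and 10438 CPM in KO, and 9 of them were called higher. The 10 enterocyte markers summed to between 32211 and 45781 CPM in WT and between 12261 and 28909 CPM in KO, and 6 of them were called lower. *Fabp2*, *Apoa1*, *Lct* and *Anpep* were not called. *Fabp1*, *Apoa4* and *Lct* were also on the list of proximal markers, so the 2 lists are not separate observations. The 10 pan-epithelial markers summed to between 13033 and 15078 CPM in WT and between 14356 and 20978 CPM in KO, and 6 of them were called higher. The others were not called, with log2 fold changes of -0.49 for *Vil1*, -0.41 for *Cdh17*, -0.35 for *Krt20* and 0.19 for *Cdh1*. Fits and scaling that use this list thus rest on markers that moved in both directions. The part of these markers' shifts in the results for the 8 enzymes was not tested beyond the covariate fits given further on. Because whole tissue was sequenced, fewer cells of a type and less RNA per cell cannot be told apart.

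In enterocytes, glutamine, glutamate and proline are turned into pyrroline-5-carboxylate, which OAT converts to ornithine in mitochondria. OTC joins ornithine with carbamoyl phosphate, made by CPS1, to give citrulline, and CPS1 works only with N-acetylglutamate, the product of NAGS. Citrulline leaves the adult gut largely intact and is made into arginine elsewhere, chiefly in kidney, by ASS1 and ASL.

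RefSeq promoters of the GRCm38.p6 assembly were found for 6 of the 8 genes, namely *Ass1*, *Oat*, *Nags*, *Prodh*, *Aldh18a1* and *Otc*. The 200 bases before the start of 4 of them are printed 5′ to 3′ on the gene's strand, since *Aldh18a1*, *Oat* and *Otc* encode steps of the route from glutamate to citrulline and *Nags* makes the activator that the route needs. Capitals mark letters that match 1 of the searched motifs on either strand.
*Otc*, chrX:10252105-10252304, plus strand: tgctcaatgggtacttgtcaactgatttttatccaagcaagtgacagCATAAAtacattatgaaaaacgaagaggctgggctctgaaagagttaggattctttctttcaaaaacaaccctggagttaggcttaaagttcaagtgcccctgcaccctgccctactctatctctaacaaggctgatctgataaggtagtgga
*Aldh18a1*, chr19:40588464-40588663, minus strand: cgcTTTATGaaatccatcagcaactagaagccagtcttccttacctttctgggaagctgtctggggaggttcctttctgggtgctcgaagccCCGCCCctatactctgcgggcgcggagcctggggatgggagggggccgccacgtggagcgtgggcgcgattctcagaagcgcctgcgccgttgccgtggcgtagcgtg
*Oat*, chr7:132576399-132576598, minus strand: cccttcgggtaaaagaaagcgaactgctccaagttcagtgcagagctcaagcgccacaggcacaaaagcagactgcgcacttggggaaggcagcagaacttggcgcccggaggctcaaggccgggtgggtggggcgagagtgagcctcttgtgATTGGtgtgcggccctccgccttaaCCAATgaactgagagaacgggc
*Nags*, chr11:102145313-102145512, plus strand: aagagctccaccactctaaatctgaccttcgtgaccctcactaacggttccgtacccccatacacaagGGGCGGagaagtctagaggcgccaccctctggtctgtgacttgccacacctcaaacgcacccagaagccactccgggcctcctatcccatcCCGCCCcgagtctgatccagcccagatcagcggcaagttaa

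The motif search covered the 250 bases before each start, on both strands, and the same window of all 32851 promoters in the RefSeq table. The motif TTTATG, recognised by the intestinal factor family CDX, lay 153 to 148 bases before the start of *Otc* and 197 to 192 bases before that of *Aldh18a1*, and 10.8% of all promoters hold it. The motif CCAAT occurred on both strands of the *Oat* promoter, and 33.8% of all promoters hold it. The GC box (GGGCGG) occurred in *Nags*, *Aldh18a1* and *Ass1*, against 32.7% of all promoters. *Prodh* held none of the searched motifs. No match was found in the 6 promoters for CAAAGTCCA (HNF4, in 0.384% of all promoters), GTTAAT (HNF1, 6.43%), TATAAA (in 12.4%) or TTGCGCAA (C/EBP, 0.164%). The motifs do not overlap with each other in these promoters. A match describes the letters and is not a binding site.

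Of the 15610 genes tested, 29.9% were called in either direction, 16.0% higher and 13.9% lower in KO, against 6 of the 8 enzymes called, 2 higher and 4 lower. A gene was called when its p from edgeR's quasi-likelihood test, adjusted over all genes tested, was under 0.05. The median log2 fold change of the 8 was -0.58, and that of all genes tested was 0.026. For 4 of the 8 the KO and WT libraries did not overlap in CPM, 2 lower and 2 higher, while 21.1% of all genes tested did not overlap, 10.8% lower and 10.2% higher.

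**Figure D1:**
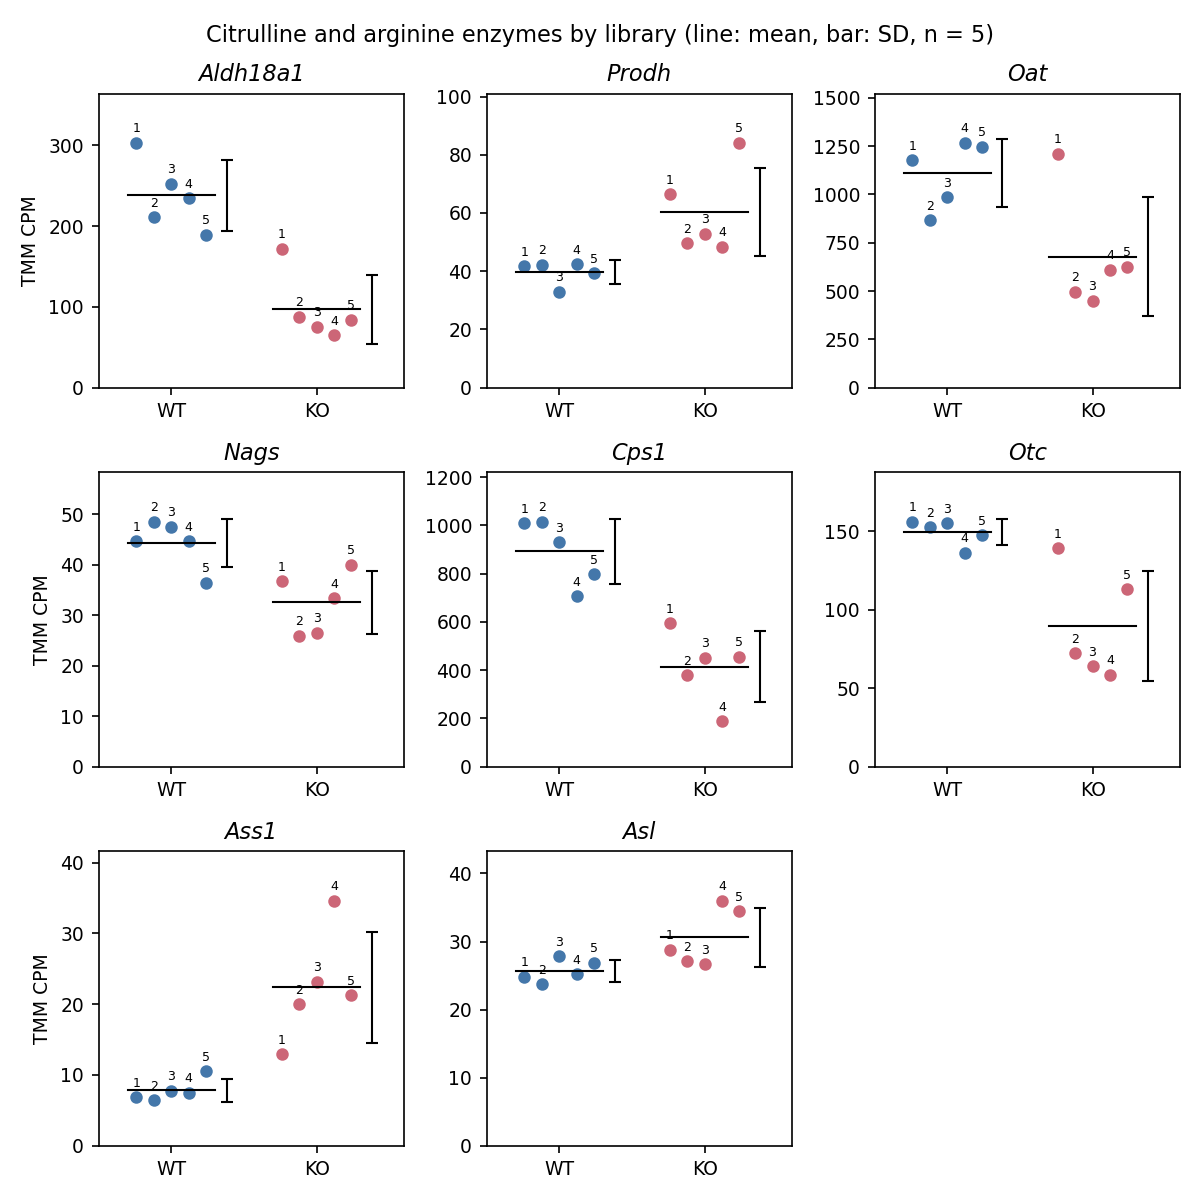
TMM-scaled CPM (vertical axes) of the 8 enzymes in each WT and KO library, with the replicate number beside each point, a line at the mean and a bar of 1 SD on each side (n = 5). *Cps1* lies between 708 and 1016 CPM in WT and between 189.6 and 595 CPM in KO, and *Ass1* is higher in every KO library than in any WT library.

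For the entry of carbon into the pathway, only the transcripts of *Aldh18a1* and *Prodh* were measured, not metabolites or enzyme activity. *Aldh18a1* (ENSMUSG00000025007, GRCm38 chromosome 19, 40550257 to 40588463, minus strand) encodes the enzyme that makes pyrroline-5-carboxylate from glutamate. It was at 303, 211, 253, 235 and 189 CPM in WT replicates 1 to 5 and at 172, 87.8, 75.2, 64.9 and 83.8 CPM in KO replicates 1 to 5. All KO libraries were below all WT libraries, and KO replicate 1 was nearer to WT than the other 4. The means were 238 ± 43.6 CPM in WT and 96.8 ± 43.0 CPM in KO (SD, n = 5 each). The log2 fold change was -1.30 with a standard error of 0.25 (edgeR, adjusted p = 0.00416).

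*Prodh* (ENSMUSG00000003526, chromosome 16, 18060357 to 18090203, minus strand) encodes proline dehydrogenase, which makes the same intermediate from proline. It was at 41.7, 42.2, 33.0, 42.5 and 39.2 CPM in WT and at 66.5, 49.7, 52.9, 48.5 and 84.2 CPM in KO. All KO libraries were above all WT libraries, with replicates 1 and 5 the highest. The means were 39.7 ± 3.997 and 60.4 ± 15.1 CPM (SD, n = 5 each), and the log2 fold change was 0.60 with a standard error of 0.16 (edgeR, adjusted p = 0.0154). With the pan-epithelial markers in the fit it was 0.067 and was not called (edgeR, adjusted p = 0.803).

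*Oat* (ENSMUSG00000030934, chromosome 7, 132557478 to 132576398, minus strand) encodes ornithine aminotransferase. It was at 1177, 865, 984, 1268 and 1247 CPM in WT and at 1210.2, 497, 449, 611 and 625 CPM in KO. KO replicate 1 lay within the WT range and the other 4 KO libraries lay below it. With means of 1108 ± 176 and 678 ± 306 CPM (SD, n = 5 each), the log2 fold change of -0.71 (standard error 0.26) was not called (edgeR, adjusted p = 0.0578). Without KO replicate 1 it was -1.02 and was called (edgeR, adjusted p = 0.00146). DESeq2 gave -0.72 over all 10 libraries, with an adjusted p of 0.0233, and over the 11 settings other than leaving out a library the adjusted p was between 0.00824 and 0.684.

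For the supply of carbamoyl phosphate, only the transcripts of *Cps1* and *Nags* were measured. *Cps1* (ENSMUSG00000025991, chromosome 1, 67123026 to 67231259, plus strand) encodes mitochondrial carbamoyl phosphate synthetase. It was at 1010.5, 1016, 931, 708 and 797 CPM in WT and at 595, 379.7, 452, 189.6 and 456 CPM in KO. The groups did not overlap, and KO replicate 4 was the lowest. The means were 893 ± 136 and 415 ± 148 CPM (SD, n = 5 each), and the log2 fold change was -1.11 with a standard error of 0.25 (edgeR, adjusted p = 0.00926).

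*Nags* (ENSMUSG00000048217, chromosome 11, 102145513 to 102149477, plus strand) encodes the enzyme that makes the activator of CPS1. It was at 44.7, 48.5, 47.5, 44.7 and 36.4 CPM in WT and at 36.7, 25.9, 26.6, 33.4 and 40.0 CPM in KO. The groups overlapped, since KO replicates 1 and 5 were above WT replicate 5. The means were 44.4 ± 4.77 and 32.5 ± 6.21 CPM (SD, n = 5 each), and the log2 fold change was -0.45 with a standard error of 0.14 (edgeR, adjusted p = 0.0308). The call was lost when any of WT replicates 1 to 4 or KO replicates 2 or 3 was left out, with an adjusted p of up to 0.0734. *Nags* shares 443 exon bases with *Gm11586* on the other strand, which had at most 4 counts in a library.

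*Otc* (ENSMUSG00000031173, chromosome X, 10252305 to 10321024, plus strand) encodes ornithine transcarbamylase, the step at which citrulline is formed. It was at 156, 152, 155, 136 and 147 CPM in WT and at 139, 72.1, 63.9, 58.7 and 113 CPM in KO. KO replicate 1 lay within the narrow WT range and the other 4 KO libraries lay below it. The means were 149 ± 8.15 and 89.4 ± 35.1 CPM (SD, n = 5 each). The log2 fold change was -0.74 with a standard error of 0.22 (edgeR, adjusted p = 0.0280). The call was lost when any of WT replicates 1 to 3 or KO replicates 2 to 4 was left out, with an adjusted p of up to 0.0603, whereas without KO replicate 1 the value was -0.96.

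Since *Cps1* and *Otc* are also highly expressed in liver, hepatocyte genes were examined. *Alb* was at most 1.57 CPM, *Fga* had at most 1 count and *Fgb* at most 7 counts in any library, and *Ttr* was between 2.53 and 5.02 CPM in WT and between 2.43 and 3.67 CPM in KO. Other genes of this 7-gene list were at their highest in KO. *Cyp2e1* was between 1.59 and 5.99 CPM in WT and between 1.10 and 40.9 CPM in KO (edgeR, adjusted p = 0.0564, not called). *Serpina1a* reached 0.616 CPM in WT and 1.78 CPM in KO, and *Tat* 0.255 and 18.5 CPM, both below the filter on low counts. The list summed to between 6.67 and 10.4 CPM in WT and between 6.65 and 64.0 CPM in KO. The part of these genes in the results for *Cps1* and *Otc* was not tested.

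The enzymes that turn citrulline into arginine were low in both groups. *Ass1* (ENSMUSG00000076441, chromosome 2, 31470207 to 31520672, plus strand) encodes argininosuccinate synthase, which joins citrulline with aspartate. It was at 6.85, 6.44, 7.76, 7.47 and 10.5 CPM in WT and at 12.9, 19.98, 23.2, 34.6 and 21.3 CPM in KO. Every KO library was above every WT library, and KO replicate 1 was the nearest to WT. The means were 7.81 ± 1.61 and 22.4 ± 7.87 CPM (SD, n = 5 each), and the log2 fold change was 1.52 with a standard error of 0.24 (edgeR, adjusted p = 0.00157). Endothelial cells and macrophages also use *Ass1*. The 8 endothelial markers summed to between 159 and 183 CPM in WT and between 119 and 184 CPM in KO, with 1 called higher and 2 lower. The 8 macrophage markers summed to between 330.2 and 413 CPM in WT and between 296 and 437 CPM in KO, with 1 called higher and 1 lower.

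*Asl* (ENSMUSG00000025533, chromosome 5, 130011258 to 130029247, minus strand) encodes argininosuccinate lyase, which releases arginine. It was at 24.9, 23.7, 27.8, 25.2 and 26.9 CPM in WT and at 28.8, 27.1, 26.7, 36.0 and 34.4 CPM in KO. The groups overlapped, and KO replicates 4 and 5 were above the rest. Its log2 fold change of 0.25 (standard error 0.11) was not called (edgeR, adjusted p = 0.0953), and it was -0.0049 when libraries were scaled to their pan-epithelial counts.

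**Figure D2:**
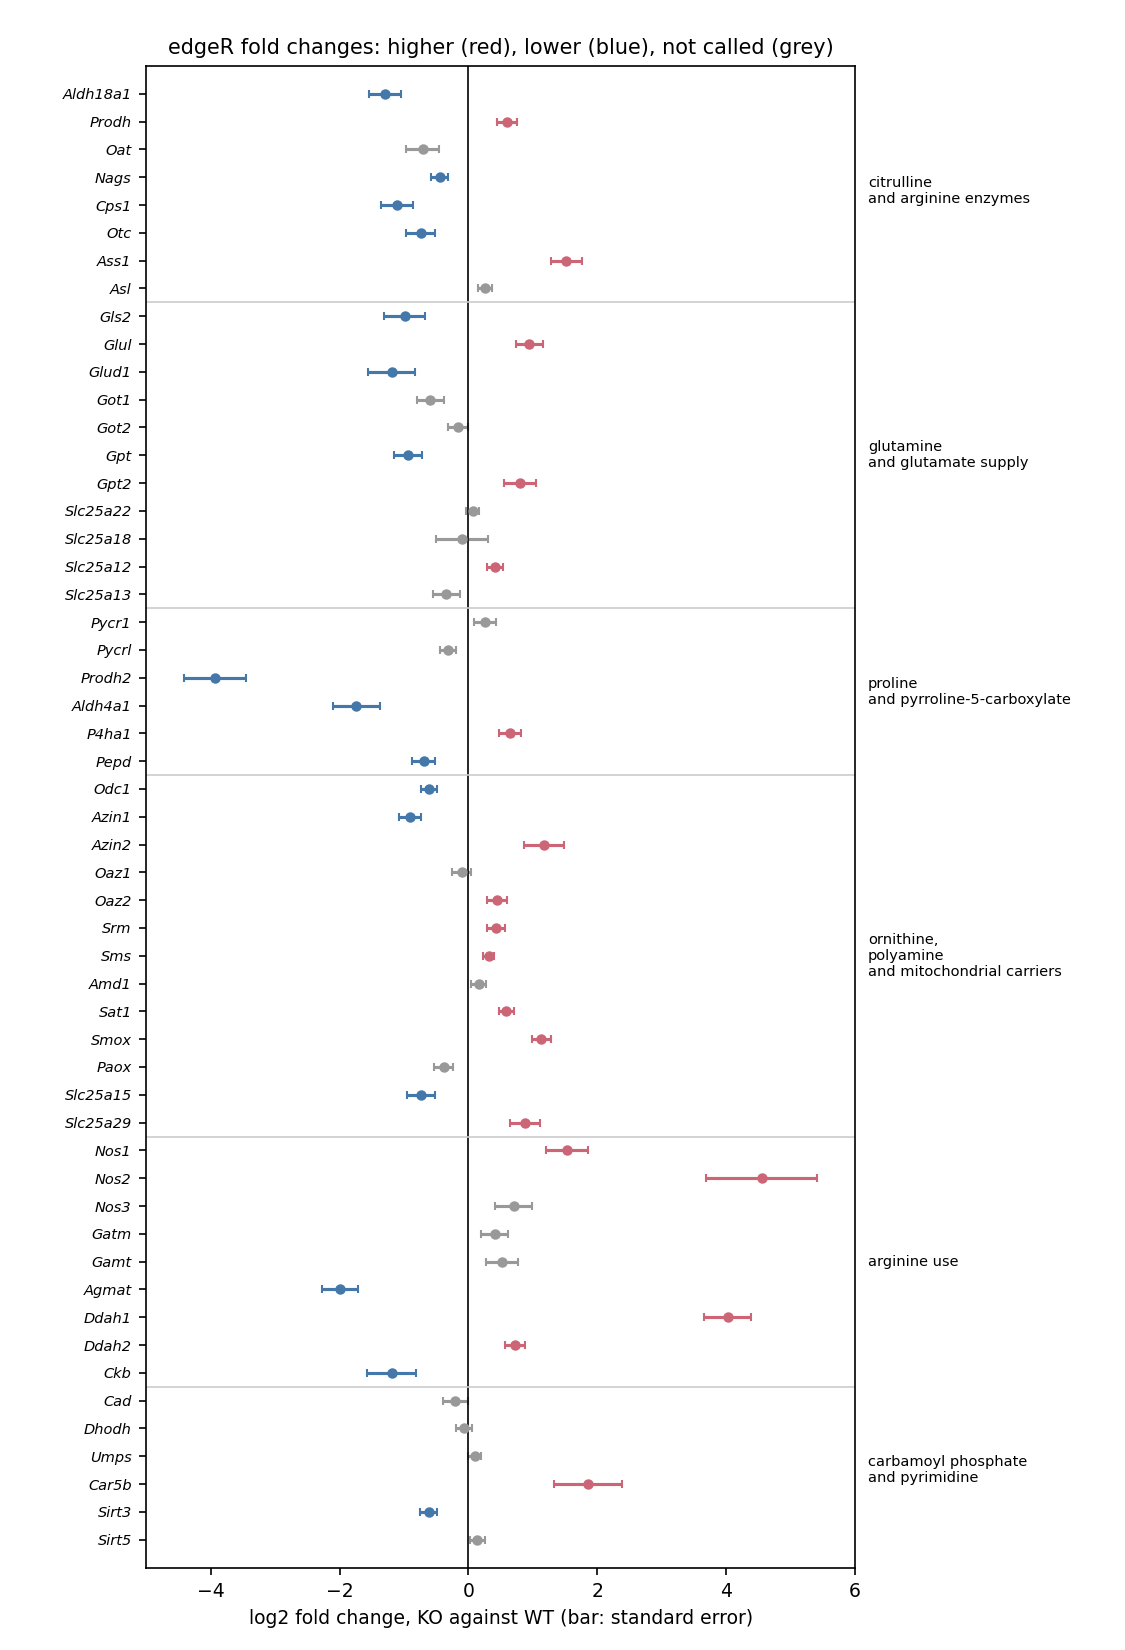
The log2 fold change of KO against WT (horizontal axis, with bars of 1 standard error from edgeR) for the 8 enzymes and the genes of the surrounding pathways, grouped by list, with genes called higher in red, lower in blue and not called in grey. *Aldh18a1* at -1.30 and *Ass1* at 1.52 lie at the ends of the 8, and *Nos2* at 4.55 and *Prodh2* at -3.93 at the ends of the other lists.

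KO replicate 1 was the highest KO library for 3 of the 4 enzymes called lower, and KO replicate 5 was the highest for *Nags*. KO replicate 4 was the lowest for 3 of the 4. Replicate 1 was also the KO library with the most *Slc39a14* and the most *Gata4*. Without it, 5 enzymes were called lower and 2 higher, and the log2 fold changes were -1.61 for *Aldh18a1*, -1.27 for *Cps1* and 1.66 for *Ass1*. Calls over all genes tested rose as well in that fit, from 2169 to 2563 lower and from 2491 to 2944 higher.

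Levels of different genes were compared per kilobase of exon. In WT, *Oat* was the highest at 469.5 CPM per kilobase. It was followed by *Cps1* at 161, *Aldh18a1* at 58.5, *Otc* at 35.2, *Nags* at 15.6, *Asl* at 5.32, *Prodh* at 5.09 and *Ass1* at 3.24 CPM per kilobase. In this order *Asl* and *Prodh* overlapped over their 5 libraries, as did *Prodh* and *Ass1*, and no other neighbours did. In KO, *Oat* remained the highest at 287 CPM per kilobase, followed by *Cps1* at 74.6, *Aldh18a1* at 23.8 and *Otc* at 21.1. *Nags* at 11.5, *Ass1* at 9.28, *Prodh* at 7.74 and *Asl* at 6.33 CPM per kilobase closed the KO order. Here all neighbours overlapped except *Oat* and *Cps1*.

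**Figure D3:**
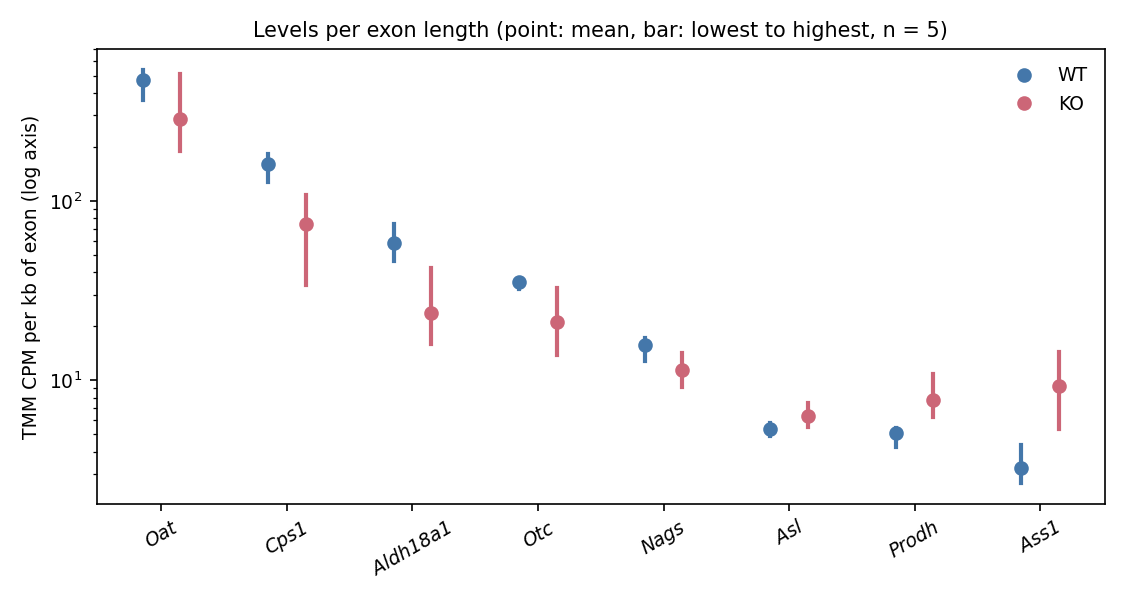
Level per kilobase of exon (CPM per kilobase, log axis) of the 8 enzymes in WT and KO, with points for the means of 5 libraries and bars from the lowest to the highest library. *Oat* leads both groups, and *Ass1*, the lowest in WT at 3.24, reaches 9.28 CPM per kilobase in KO.

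Ratios between 2 enzymes within a library do not depend on how libraries are scaled. Of 3 ratios per length compared with an exact permutation test, whose smallest two-sided p with 5 against 5 is 0.00794, 1 differed between the groups. *Ass1* to *Asl* was between 0.543 and 0.784 in WT and between 0.897 and 1.92 in KO, a difference of 1.23 on the log2 scale (exact permutation test, two-sided p = 0.00794, adjusted over 3 ratios 0.0238). *Otc* to *Cps1* differed by 0.36 on the log2 scale between the groups and overlapped (exact permutation test, two-sided p = 0.127, adjusted 0.190). *Otc* to *Oat* differed by -0.036 on the log2 scale (exact permutation test, two-sided p = 0.833, adjusted 0.833), with values between 0.0598 and 0.0981 in WT and between 0.0535 and 0.101 in KO.

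The surrounding pathways were described by 5 lists with 47 genes matched and 45 tested. Of these, 16 were called higher, 12 lower and 17 not called, and their median log2 fold change was 0.096, beside 16.0% called higher and 13.9% lower among all genes tested. With libraries scaled to their pan-epithelial counts, 6 were called higher and 16 lower, beside 937 higher and 4400 lower of all genes tested.

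In the list of glutamine and glutamate supply, 3 of 11 genes rose and 3 fell. *Glul*, glutamine synthetase, rose from 66.5 ± 6.92 to 128 ± 42.4 CPM (SD, n = 5 each), with a log2 fold change of 0.94. *Gpt2*, a mitochondrial alanine aminotransferase, rose by 0.80 and *Slc25a12*, an aspartate and glutamate carrier, by 0.41 on the log2 scale. The cytosolic aminotransferase *Gpt* fell from 316 ± 81.1 to 166 ± 41.9 CPM (SD, n = 5 each), with a log2 fold change of -0.93. *Glud1*, glutamate dehydrogenase, was 779 CPM in KO replicate 1 and between 229.8 and 289 CPM in the other 4, with a log2 fold change of -1.19. *Gls2*, a glutaminase, had a log2 fold change of -0.99 at 2.34 CPM in WT and 1.18 CPM in KO. Of these calls, those of *Gls2*, *Glud1*, *Gpt2* and *Slc25a12* were lost in 6 to 8 of the 10 fits that left out 1 library.

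In the list of proline and pyrroline-5-carboxylate, 1 of 6 genes rose and 3 fell. *Prodh2*, which oxidises hydroxyproline, was between 19.5 and 42.8 CPM in WT and between 0.648 and 4.62 CPM in KO, a log2 fold change of -3.93. *Aldh4a1*, which removes pyrroline-5-carboxylate by turning it into glutamate, was between 27.3 and 155 CPM in WT and between 22.1 and 32.3 CPM in KO. Its log2 fold change was -1.74, and WT replicate 4 overlapped with KO. *Pepd*, a dipeptidase that frees proline, had a log2 fold change of -0.69. *P4ha1*, a collagen prolyl hydroxylase subunit, rose from 11.3 ± 1.30 to 17.6 ± 4.29 CPM (SD, n = 5 each), with a log2 fold change of 0.64. *Pycrl*, the older symbol of *Pycr3*, was at 54.9 ± 5.87 and 44.2 ± 6.97 CPM (SD, n = 5 each) and was not called.

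In the list of ornithine, polyamines and mitochondrial carriers, 7 of 13 tested genes rose and 3 fell. *Slc25a15*, the carrier that exchanges ornithine and citrulline across the mitochondrial membrane, was between 280.1 and 365 CPM in WT. In KO it was 290.2 CPM in replicate 1, 254 CPM in replicate 5 and between 143 and 147 CPM in the other 3, with a log2 fold change of -0.74, the same as that of *Otc*. *Odc1*, which starts polyamine synthesis from ornithine, fell from 184 ± 28.9 to 120.1 ± 12.0 CPM and *Azin1*, which protects it, from 460.1 ± 65.1 to 245 ± 58.8 CPM (SD, n = 5 each). The log2 fold changes were -0.61 and -0.91. The polyamine catabolic enzymes *Smox* and *Sat1* rose, by 1.13 and 0.59 on the log2 scale, while *Paox*, also a polyamine oxidase, was at 13.3 ± 2.57 CPM in WT and 10.2 ± 1.27 CPM in KO (SD, n = 5 each) and was not called. The synthases *Srm* and *Sms* rose by 0.43 and 0.32. *Oaz2*, *Azin2* and the basic amino acid carrier *Slc25a29* rose by 0.44, 1.18 and 0.88, although *Oaz2* and *Azin2* were at -0.12 and -0.024 with the smooth muscle markers in the fit. With 1 library left out, the calls of *Oaz2* and *Srm* were each lost in 8 of 10 fits, that of *Slc25a15* in 6 and that of *Sms* in 3.

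In the list of arginine use, 4 of 9 genes rose and 2 fell. *Nos2*, inducible nitric oxide synthase, was at 5.50, 1.72, 1.57, 4.18 and 16.0 CPM in WT and at 154, 73.4, 19.8, 73.8 and 362 CPM in KO, a log2 fold change of 4.55 with a standard error of 0.86 (edgeR, adjusted p = 0.00375). With 1 library left out, its log2 fold change was between 3.79, without KO replicate 5, and 5.38, without WT replicate 5. The KO libraries spread over a wide range, all above WT. *Ddah1*, which degrades the nitric oxide synthase inhibitor dimethylarginine, was between 1.98 and 4.82 CPM in WT and between 25.7 and 89.0 CPM in KO, a log2 fold change of 4.02 with a standard error of 0.36 (edgeR, adjusted p = 1.23e-04). *Ddah2* and the neuronal synthase *Nos1* rose by 0.72 and 1.53 on the log2 scale, while the endothelial synthase *Nos3* was 1.39 ± 0.201 and 2.26 ± 0.959 CPM (SD, n = 5 each) and was not called. *Agmat*, named agmatinase, was between 15.5 and 30.6 CPM in WT and between 3.45 and 8.39 CPM in KO, a log2 fold change of -1.99. *Ckb*, brain-type creatine kinase, had a log2 fold change of -1.19 with overlapping groups, and its call was lost in 7 of 10 fits that left out 1 library.

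In the list of carbamoyl phosphate and pyrimidine synthesis, 1 of 6 tested genes rose and 1 fell, close to the 16.0% and 13.9% of all genes tested, and the median log2 fold change was 0.014. *Car5b*, a mitochondrial carbonic anhydrase, rose from 2.55 ± 1.23 to 9.26 ± 7.49 CPM, and *Sirt3*, a mitochondrial deacetylase, fell from 16.8 ± 2.57 to 11.02 ± 1.195 CPM (SD, n = 5 each). *Cad*, whose carbamoyl phosphate feeds pyrimidine synthesis in the cytosol, was 37.6 ± 2.30 and 32.7 ± 10.4 CPM (SD, n = 5 each) and was not called. The call of *Car5b* was lost without WT replicate 2, 3 or 5 or KO replicate 4.

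**Figure D4:**
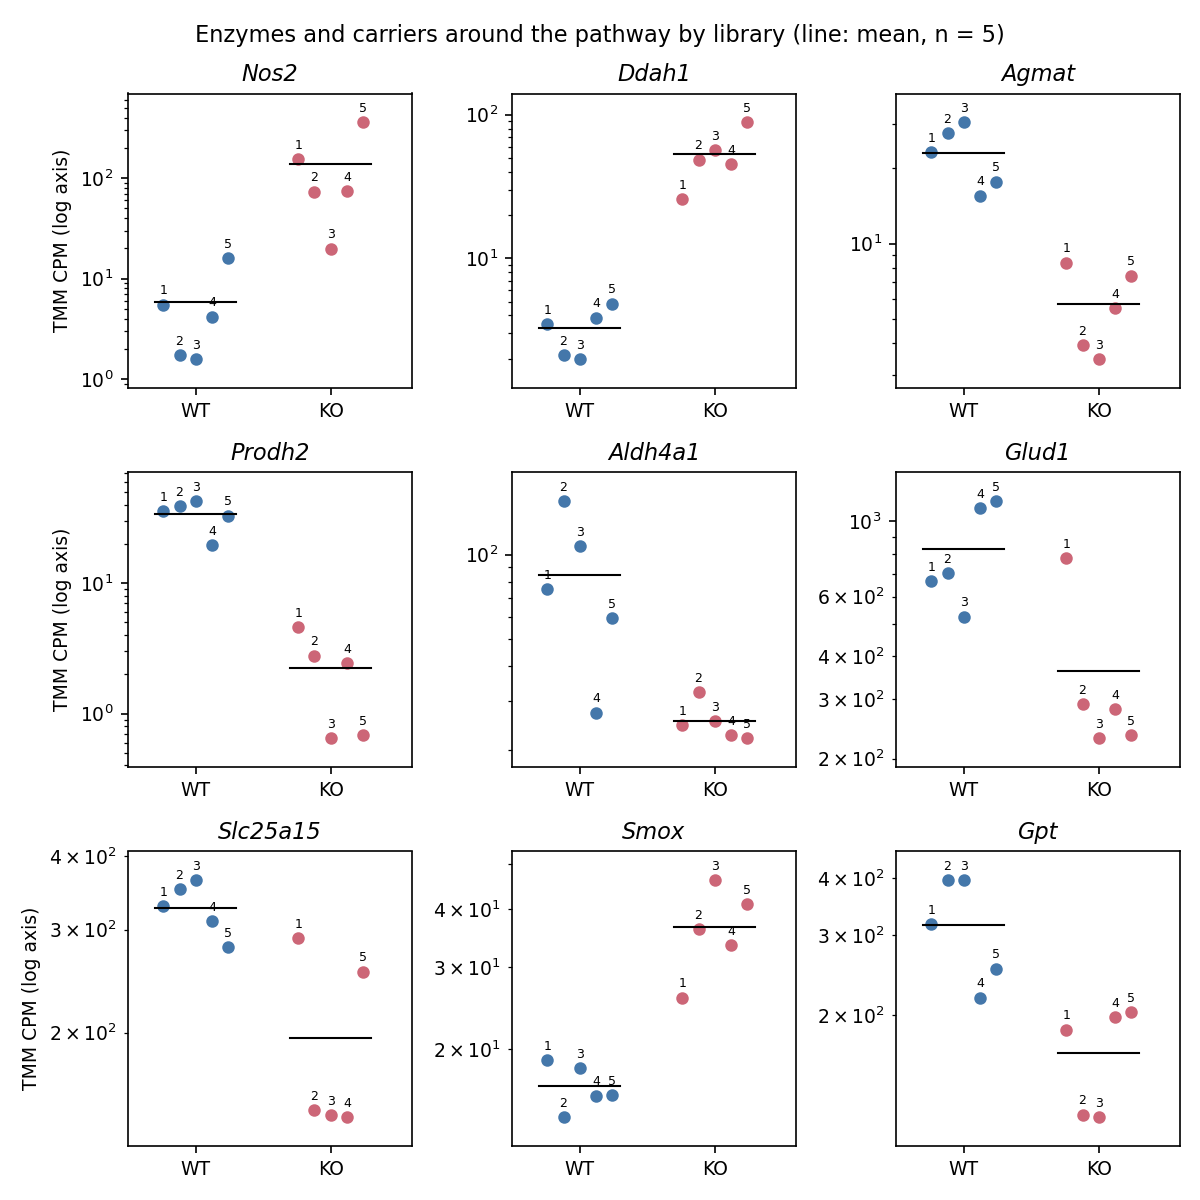
TMM-scaled CPM (log axes) by library for 9 genes of the surrounding lists, chosen after their values were seen, with replicate numbers and lines at the means of 5. KO replicate 1 stands apart from the other KO libraries for *Glud1* at 779 CPM.

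When the mean log2 CPM of the smooth muscle markers, which did not overlap between the groups, was added to the fit, 0 of the 8 enzymes and 0 of the 45 pathway genes were called by edgeR. At an unadjusted p under 0.05 there were 1 enzyme, *Prodh*, and 9 pathway genes. *Aldh18a1* was then at -0.54, *Cps1* at -0.014, *Otc* at -0.028, *Ass1* at 0.50 and *Prodh* at 0.96, and 10 genes in all were called higher and 8 lower. With the pan-epithelial markers in the fit instead, *Otc*, *Aldh18a1* and *Ass1* were called and *Cps1*, *Nags* and *Prodh* were not. *Cps1* was at -1.57 (edgeR, adjusted p = 0.05004), *Nags* at -0.56 (edgeR, adjusted p = 0.126) and *Prodh* at 0.067 (edgeR, adjusted p = 0.803) in that fit. Over the 11 settings the adjusted p ranged from 1.53e-04 to 0.989 for *Cps1* and from 0.00419 to 0.803 for *Prodh*. With libraries scaled to their pan-epithelial counts, 2 enzymes were called higher and 5 lower. Of all genes tested, 937 were then called higher and 4400 lower, and their median log2 fold change was -0.23.

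**Figure D5:**
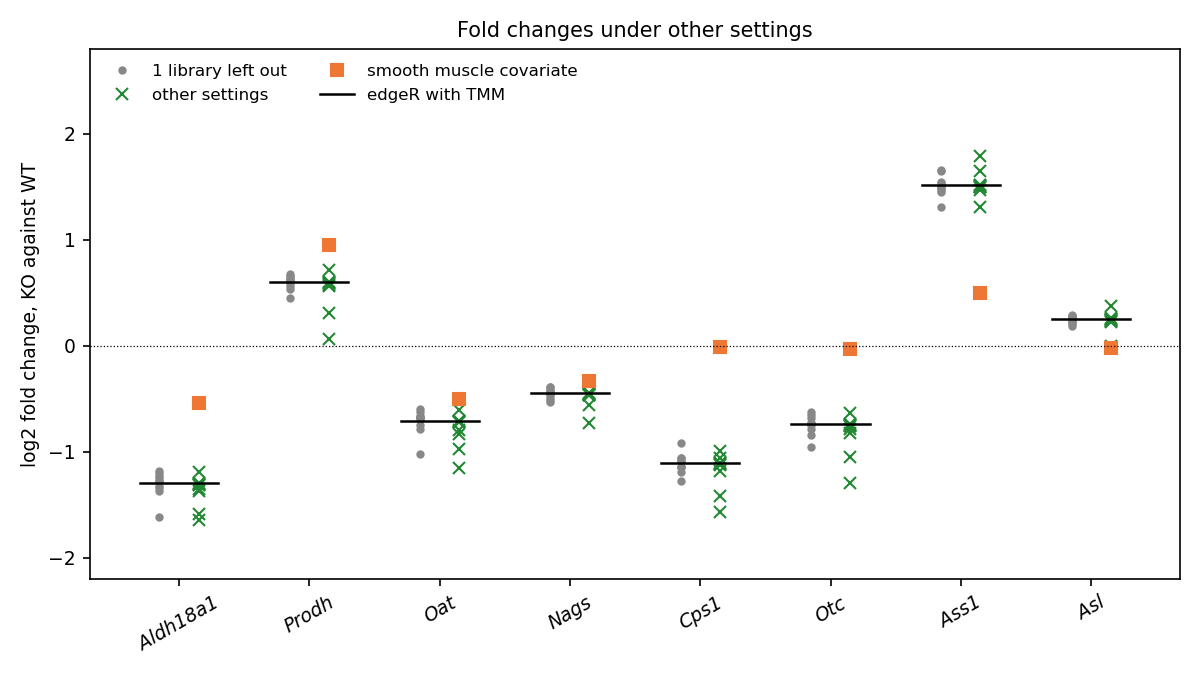
The log2 fold change of KO against WT (vertical axis) of the 8 enzymes under edgeR with TMM (line), with 1 library left out (grey points), with the smooth muscle covariate (squares) and under the other settings (crosses). *Aldh18a1* stays at or below -0.54 in every fit, while *Cps1* and *Otc* reach -0.014 and -0.028 with the smooth muscle covariate.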

How the data were processed

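RNA from intestine of 10 mice, labelled proximal, was made into libraries with a SMARTer mRNA kit and sequenced on a NovaSeq instrument. The authors deposited counts of reads per Ensembl gene ID for each library, as whole numbers without normalization. The submitters' processing notes list FastQC 0.11.9, Trimmomatic, HISAT2 2.0.4, SAMtools 1.3.1 and DESeq2 1.14.1, with the build GRCm38 (mm10). How reads were counted, on which annotation and with or without strand, is not given in the sources used here. Reads of overlapping genes on different strands can therefore be counted for either gene.

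Symbols and positions came from GENCODE M21 (GRCm38) and were found for 34490 of 35275 IDs. Groups were compared in R 4.3.3 with the quasi-likelihood test of edgeR 4.0.16 after TMM normalization and filterByExpr (minimum count 10, minimum total 15), with Benjamini-Hochberg adjustment over 15610 genes and a threshold of 0.05. Standard errors are those of the edgeR model. Ratios were compared by exact permutation. The edgeR and DESeq2 fits were checked on simulated counts with 200 genes changed, fewer than the 4660 called here. The exact permutation test was not checked in this way. The median total was 18206101 counts in WT and 18146070 in KO.

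The 8 enzymes, the gene lists and the markers were chosen with earlier results of these data known. Named genes were the 8 enzymes, every called gene of a pathway list and up to 3 abundant others. *Slc39a14*, *Xist*, *Gm11586*, *Nos3*, *Paox*, *Slc25a2*, *Car5a* and single marker genes with values, such as *Gata4*, *Fabp6*, *Onecut2*, *Cyp2e1* and *Tat*, were named outside this rule. Some genes of these lists, 1 ratio and the genes most correlated with 1 enzyme, which the rule also covered, are not reported here. Alternatives were RLE normalization, library size only, scaling to pan-epithelial counts, DESeq2 1.42.0, other filters, robust dispersion, 3 covariates, the replicate block and leaving out each library.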

Additional observations from a re-analysis of the deposited data

Results flagged for a closer look

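Dixon's test was run on 78 groups of 5 libraries, for which chance gives about 3.9 flags, and it marked 8 values. KO replicate 1 was far above the other KO libraries for *Oat* at 1210.2 CPM (others between 449 and 625), for *Aldh18a1* at 172 CPM (64.9 to 87.8) and for *Glud1* at 779 CPM (229.8 to 289). WT replicate 5 was above the other WT libraries for *Pepd* at 648.9 CPM (552 to 580.0), for *Nos2* at 16.0 CPM (1.57 to 5.50) and for the per-length ratio of *Ass1* to *Asl* at 0.784 (0.543 to 0.593). *Slc25a29* was low in WT replicate 2 at 1.08 CPM (others between 2.02 and 2.36), and *Ckb* was high in KO replicate 4 at 374 CPM (129.8 to 199).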

How the results depend on the processing

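The direction of *Otc*, *Cps1*, *Oat*, *Aldh18a1*, *Nags*, *Ass1* and *Prodh* was kept in all 10 fits that left out a library and in all 11 other settings, but *Otc* and *Cps1* were near 0 at -0.028 and -0.014 with the smooth muscle covariate, as was *Prodh* at 0.067 with the pan-epithelial covariate. *Cps1*, *Aldh18a1*, *Ass1* and *Prodh* were called in 10 of 10 fits that left out a library, *Otc* and *Nags* in 4 each, *Oat* in 1 and *Asl* in 0. With 1 library left out, 2 to 5 of the 8 enzymes were called lower and 2 higher in every fit, 11 to 16 pathway genes higher and 8 to 12 lower, and 1634 to 2944 of all genes higher and 1573 to 2563 lower. The lowest counts came without WT replicate 2, and 2 enzymes were called lower also without WT replicate 1 or 3 or KO replicate 2 or 3. Of the pathway genes, *Gls2*, *Glud1*, *Gpt2*, *Slc25a12*, *Oaz2*, *Srm*, *Sms*, *Slc25a15*, *Ckb* and *Car5b* lost their call in at least 1 of these fits. The smooth muscle covariate left 0 enzymes called higher and 0 lower, 0 pathway genes in either direction, and 10 genes higher and 8 lower in all, and put *Asl* at -0.025, *Azin2* at -0.024 and *Oaz2* at -0.12. The pan-epithelial covariate left 1 enzyme higher and 2 lower, 11 pathway genes higher and 3 lower, and 1134 genes higher and 562 lower. Scaling to pan-epithelial counts gave 937 genes higher and 4400 lower, 6 pathway genes higher and *Asl* at -0.0049, and moved the median of all genes from 0.026 to -0.23. The share of calls that were higher was 53.5% with TMM, 17.6% with that scaling, 69.4% with library size only (median 0.15) and 66.9% with the pan-epithelial covariate. The cause of these shifts was not tested. *Nags* was not called with library size only (edgeR, adjusted p = 0.0567) or the Y-linked covariate (0.0555), and *Asl* was called with library size only (0.0263). Because the Y-linked genes had 0 or 1 count in each library, that covariate rested on single reads and its fit is no test of sex. Over the 11 settings the adjusted p of *Nags* was between 0.00392 and 0.627 and that of *Asl* between 0.0263 and 0.984.

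With 1 library left out, the log2 ratio of *Otc* to *Oat* differed by -0.15 to 0.080, that of *Otc* to *Cps1* by 0.23 to 0.52 and that of *Ass1* to *Asl* by 1.11 to 1.39. *Otc* to *Cps1* differed at 0.52 only without KO replicate 3 (exact permutation test, adjusted over 3 ratios 0.0476). The replicate numbers are shared by the groups but do not pair the mice: the correlation of same-numbered libraries was between -0.167 and 0.177, and 1 of 5 WT libraries was closest to its own number. With the replicate block, 1950 genes were called higher and 1898 lower, with 2 enzymes higher and 4 lower, *Oat* among them in place of *Nags*. At this depth *Slc25a2*, *Car5a* and the Y-linked genes were too low to test.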

Other observations

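*Tat*, tyrosine aminotransferase, an amino acid catabolic enzyme on the hepatocyte list, was below the filter on low counts and was not tested. It was at most 0.255 CPM in WT and 0.338 CPM in KO replicate 1, and at 17.3, 12.7, 5.77 and 18.5 CPM in KO replicates 2 to 5. Among the WT libraries, replicates 4 and 5 were both below replicates 1 to 3 for 18.9% of all genes tested and both above them for 18.5%. They were below for 3 of the 8 enzymes, *Cps1*, *Otc* and *Nags*, although WT replicates 1 and 4 were both at 44.7 CPM for *Nags*, and above for *Oat*. Of the 45 pathway genes tested they were below for 17, among them *Agmat*, *Gpt*, *Ckb* and *Aldh4a1*, and above for 8. *Cps1* was 708 and 797 CPM in replicates 4 and 5 and between 931 and 1016 CPM in the others, all above the KO libraries. *Aldh4a1* was 27.3 and 59.3 CPM against 75.1 to 155 CPM. *Ckb* was 219 and 242 CPM in replicates 4 and 5 and between 585 and 667 CPM in the others, and *Gpt* was 218 and 253 CPM against 317 to 396 CPM. *Glud1*, a pathway gene that was above, was at 1095 and 1148 CPM in replicates 4 and 5 and between 524 and 704 CPM in the others. The proximal marker *Onecut2* was 18.1 and 20.2 CPM in WT replicates 4 and 5 and between 68.1 and 124 CPM in replicates 1 to 3. These differences within WT were noticed after their values were seen and were not tested.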
